A study of Mus musculus with 14 samples.

Results

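MyoD ChIP-seq peak lists from activated (ASC) and quiescent (QSC) muscle stem cells were compared to ask where MyoD peaks appear, persist or disappear after muscle injury. They are the 6 MyoD lists among 12 peak lists of the series, and they hold 7694 of its 10303 peaks. The other 6 lists are MyoG libraries, used here only for overlap. The mice carried a mito-Dendra2 allele, a fluorescent mitochondrial protein switched on in Pax7-expressing cells by a tamoxifen-inducible Cre (Pax7-CreERT2), and all of them received 5 daily doses of tamoxifen at 75 mg/kg. ASCs were CD34-negative, Dendra2-positive cells sorted 2 days after injection of 50 µL of 1.2% BaCl2, a muscle toxin, into the tibialis anterior of the shin. QSCs were CD34-positive, Dendra2-positive cells from the opposite, saline-injected muscle. The labels give the genotype as wild-type and state no age, and each state had 3 libraries. Because the sort used CD34, injury and CD34 status cannot be told apart, and descendants that had left the stem cell state also carried Dendra2. The study calls the libraries of a state biological replicates, and the labels do not say how many animals each came from.

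MyoD is a basic helix-loop-helix transcription factor of the muscle lineage. It binds DNA as a dimer with an E protein at the E-box, a short element written CANNTG, and it switches on muscle genes, among them other muscle transcription factors. Quiescent muscle stem cells are known to hold little MyoD protein, which accumulates as the cells activate, divide and commit to differentiation. MyoD then acts with partners such as MEF2 factors on the genes of the contractile apparatus.

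Several promoters gained a MyoD peak close to the gene start, and 6 are shown because they carry E-boxes of known MyoD preference at genes of the contractile apparatus, the neuromuscular junction or the bHLH family. Each is the 250 bases before a RefSeq gene start (build GRCm38.p6), read 5′ to 3′ on the gene's strand, with CAGCTG and CAGGTG (or its complement CACCTG) in capitals. Chrna1 (chr2:73580339-73580588, minus strand) encodes the muscle acetylcholine receptor alpha subunit, Hes6 (chr1:91414039-91414288, minus strand) a bHLH factor, Klhl40 (chr9:121777357-121777606, plus strand) a stabilizer of thin filament proteins, Des (chr1:75360042-75360291, plus strand) the intermediate filament desmin, Acta1 (chr8:123894776-123895025, minus strand) skeletal actin and Mybpc1 (chr10:88605153-88605402, minus strand) slow myosin-binding protein C.
Chrna1: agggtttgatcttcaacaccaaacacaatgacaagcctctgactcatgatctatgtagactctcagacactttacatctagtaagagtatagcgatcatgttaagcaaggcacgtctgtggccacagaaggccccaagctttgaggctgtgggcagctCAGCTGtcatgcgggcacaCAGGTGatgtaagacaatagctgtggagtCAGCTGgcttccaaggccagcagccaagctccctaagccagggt
Hes6: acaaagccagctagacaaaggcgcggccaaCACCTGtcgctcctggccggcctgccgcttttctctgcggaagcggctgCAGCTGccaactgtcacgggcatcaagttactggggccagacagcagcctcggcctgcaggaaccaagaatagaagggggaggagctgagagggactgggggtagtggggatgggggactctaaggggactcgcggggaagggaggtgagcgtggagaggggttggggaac
Klhl40: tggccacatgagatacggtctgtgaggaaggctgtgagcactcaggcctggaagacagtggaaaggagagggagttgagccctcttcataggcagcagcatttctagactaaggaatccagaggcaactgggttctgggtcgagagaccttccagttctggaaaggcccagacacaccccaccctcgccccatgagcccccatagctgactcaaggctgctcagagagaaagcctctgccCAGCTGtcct
Des: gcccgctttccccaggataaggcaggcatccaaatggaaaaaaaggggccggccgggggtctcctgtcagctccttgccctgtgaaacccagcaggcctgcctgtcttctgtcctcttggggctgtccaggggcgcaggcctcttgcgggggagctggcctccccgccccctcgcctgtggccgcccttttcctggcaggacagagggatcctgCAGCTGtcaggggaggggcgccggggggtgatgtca
Acta1: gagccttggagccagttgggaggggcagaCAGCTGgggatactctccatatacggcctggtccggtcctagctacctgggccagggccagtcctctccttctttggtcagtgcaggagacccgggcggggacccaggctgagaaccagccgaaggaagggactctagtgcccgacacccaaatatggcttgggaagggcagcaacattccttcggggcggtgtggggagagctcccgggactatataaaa
Mybpc1: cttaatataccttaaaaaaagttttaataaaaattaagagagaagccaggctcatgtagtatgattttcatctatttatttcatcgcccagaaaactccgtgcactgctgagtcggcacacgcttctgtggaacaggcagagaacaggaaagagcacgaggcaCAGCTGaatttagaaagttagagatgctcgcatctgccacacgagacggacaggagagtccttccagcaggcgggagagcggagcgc

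Counted back from the gene start, with -1 the base just before it, the Chrna1 elements began at -92, -73 and -44, the last 2 being CAGGTG and CAGCTG. The Hes6 elements began at -220 and -171, the Klhl40 element at -10, the Des element at -36, the Acta1 element at -221 and the Mybpc1 element at -87. Across RefSeq promoter windows, which span 250 bases before to 50 after a gene start, CAGCTG was present in 85 of the 168 windows that a gained region overlapped (50.6%) and in 16.3% of all 32851 windows. The share was 51.1% of 92 windows for regions called in all 3 ASC libraries, 50.0% of 76 windows for regions called in 2, and 52.1% of 194 windows for peaks of a single ASC library. It was 1 of the 9 windows that a QSC peak overlapped. CAGGTG was present in 33.9% of the windows with gained regions and 20.2% of all windows. The general form CANNTG, which contains both, was present in 89.9% and 72.3%. The window table holds no entry for some genes, and a match describes the letters only. The 6 promoters were picked for their elements. Gained regions overlapped the windows of 19 RefSeq starts of 18 genes of the muscle and signalling lists described below, and for 9 of these starts, those of Mef2c, Mef2a, Nr4a3, Synpo2l, Sgcb, Smyd1, Rxrg, Myh1 and Myog, the 250 bases before the start held neither CAGCTG nor CAGGTG.

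Peaks of the 6 libraries that overlapped by at least 1 bp were merged into 4488 regions. A region was called gained with a peak in 2 or more ASC libraries and no QSC library, lost in the converse case, and kept with peaks in 2 or more libraries of both states. By that rule 1976 regions were gained (44.0% of all merged regions), 35 were lost (0.78%) and 4 were kept. Another 6 regions were called in 2 or more ASC libraries and in 1 QSC library, and 2 in 2 or more QSC libraries and 1 ASC library. The rest had a peak in a single library of a state, 2106 regions in ASCs, 353 in QSCs and 6 in both. Of the gained regions 1101 were called in all 3 ASC libraries and 875 in 2. The score of a peak is -10 times the log10 of its p-value, so a higher score means a call further above background. The median of the mean ASC score was 98.5 for gained regions called in 3 libraries, 70.7 for those called in 2 and 58.4 for regions of a single ASC library. Kept regions made up 9.76% of the 41 regions called in 2 or more QSC libraries and 0.201% of the 1986 called in 2 or more ASC libraries. Score and peak number depend on read depth, which the lists do not give, so a region without a peak is one where none was called. Fewer bound cells and weaker binding in each cell cannot be told apart.

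The peaks of both states lay in different parts of genes. Introns held 35.4%, 35.0% and 34.9% of the peaks of ASC replicates 1, 2 and 3 and 20.5%, 22.3% and 21.8% of the peaks of QSC replicates 1, 2 and 3. Distal intergenic sequence held 34.5%, 36.4% and 36.5% of ASC peaks against 56.7%, 56.8% and 51.1% of QSC peaks. Promoters, taken as within 3 kb of a gene start, held 23.3%, 21.9% and 22.2% against 14.0%, 9.35% and 18.4%. In each of these the libraries of the states did not overlap. Among peaks scoring at least 80, of which each QSC library had only 25 or 26, promoter shares did overlap, with 23.0% to 23.3% in ASCs and 15.4%, 16% and 28% in QSC replicates 1, 2 and 3. Exon, UTR and downstream sequence together held 6.61% ± 0.222 of ASC peaks and 9.63% ± 1.63 of QSC peaks (SD, n = 3), but without a crowded 1-Mb stretch of chromosome 4 described below the order turned, with 6.32% to 6.75% in ASCs and 5.13% to 5.96% in QSCs. The log2 ratio of peak number was 3.90, or 14.9-fold. For each of the 7 measures tested (peak number, the 4 shares above, the share at multi-copy gene families or Gm symbols and median peak width), the exact two-sided permutation p was 0.1 (0.1 after Benjamini-Hochberg adjustment), the smallest that 3 libraries against 3 allow, so none could pass 0.05.

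**Figure D1:**
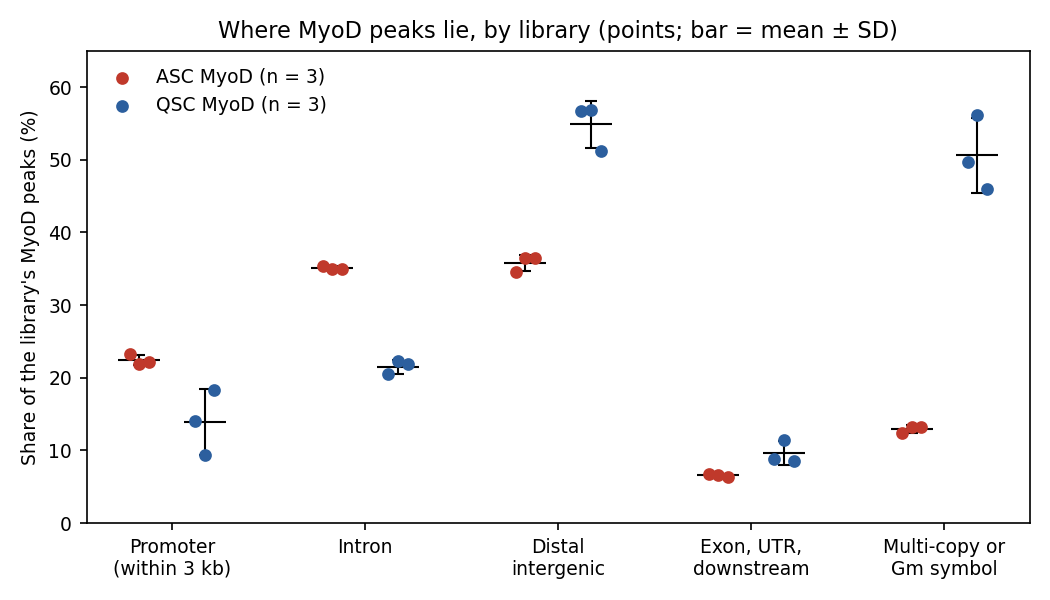
Share of each MyoD library's peaks by gene part and at multi-copy families or predicted gene models, by symbol (y axis, %), with ASC libraries in red, QSC libraries in blue and the mean ± SD of 3 libraries as a black bar. The ASC points lie closer together than the QSC points in each category, above the QSC points for promoters and introns and below them for distal sequence and the multi-copy families and gene models.

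Distance to gene starts differed among the QSC classes. The median distance to the nearest RefSeq start was 22.0 kb over the 1916 gained regions on chromosomes covered by the start table, and 39.5 kb over 346 regions of a single QSC library, but 17.5 kb over the 34 lost regions on those chromosomes. Within 1 kb of a start lay 8.61% of gained regions, 9.20% of regions of a single ASC library and 2.60% of regions of a single QSC library, and 1 of the 34 lost regions (2.94%). More than 100 kb from any start in the table lay 12.0%, 14.95%, 30.3% and 20.6% of them. The start table lacks some starts, so these distances can be too long and the shares within 1 kb too low. A Tead1 region that the annotation placed within 1 kb of a start stood 225 kb from its nearest entry. These distances describe regions, which are not replicates, and were not tested.

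**Figure D2:**
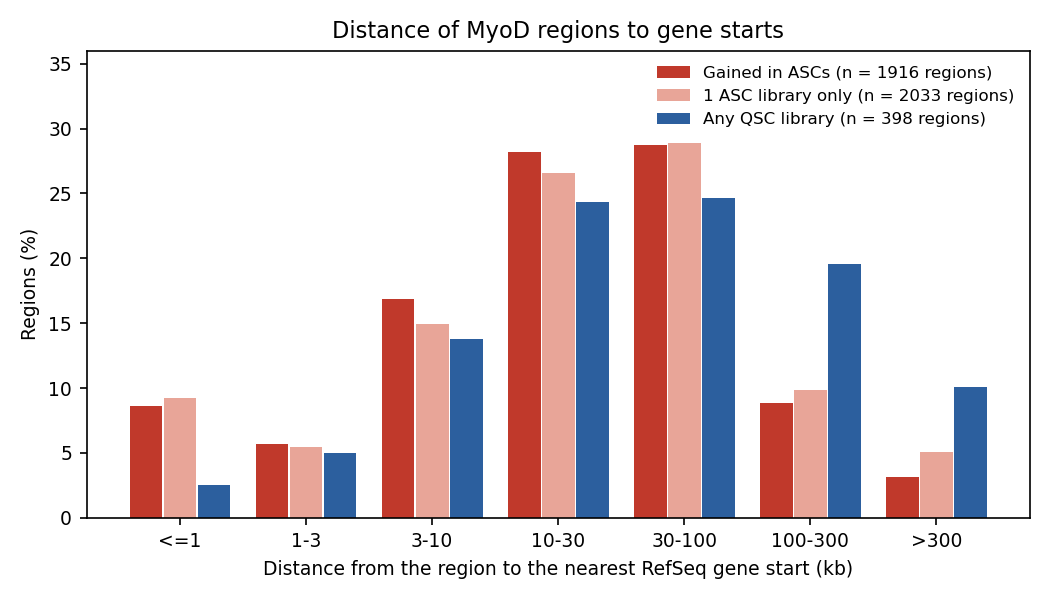
Percent of MyoD regions (y axis) in each class of distance to the nearest RefSeq gene start in the incomplete start table (x axis, kb). Gained regions are red, regions of 1 ASC library pink and regions with a peak in any QSC library blue. At most 1 kb from a start, gained regions stand at 8.61% and QSC regions at 2.51%, and beyond 300 kb at 3.13% and 10.1%.

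The authors' annotation gave the gained regions 1575 genes that no QSC peak carried. Of these, 1307 had 1 gained region, 208 had 2 and 60 had 3 or more. Among protein-coding RefSeq symbols 1262 of 21900 were such genes (5.76%), and 224 carried any QSC peak (1.02%). The 15 gene lists below are set beside that 5.76%. Lists and members were chosen with earlier results of these data known, so a share above it is no test of enrichment. When regions were instead given to the protein-coding RefSeq gene they overlapped or lay nearest to, 7.01% of genes qualified, and 1581 of the 1613 gained regions that the annotation gave to a protein-coding gene kept the same gene. The share of genes with a gained region ran from 12.5% in the list of AP-1 and early response genes to 50.0% in the list of myogenic regulatory factors and MEF2.

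**Figure D3:**
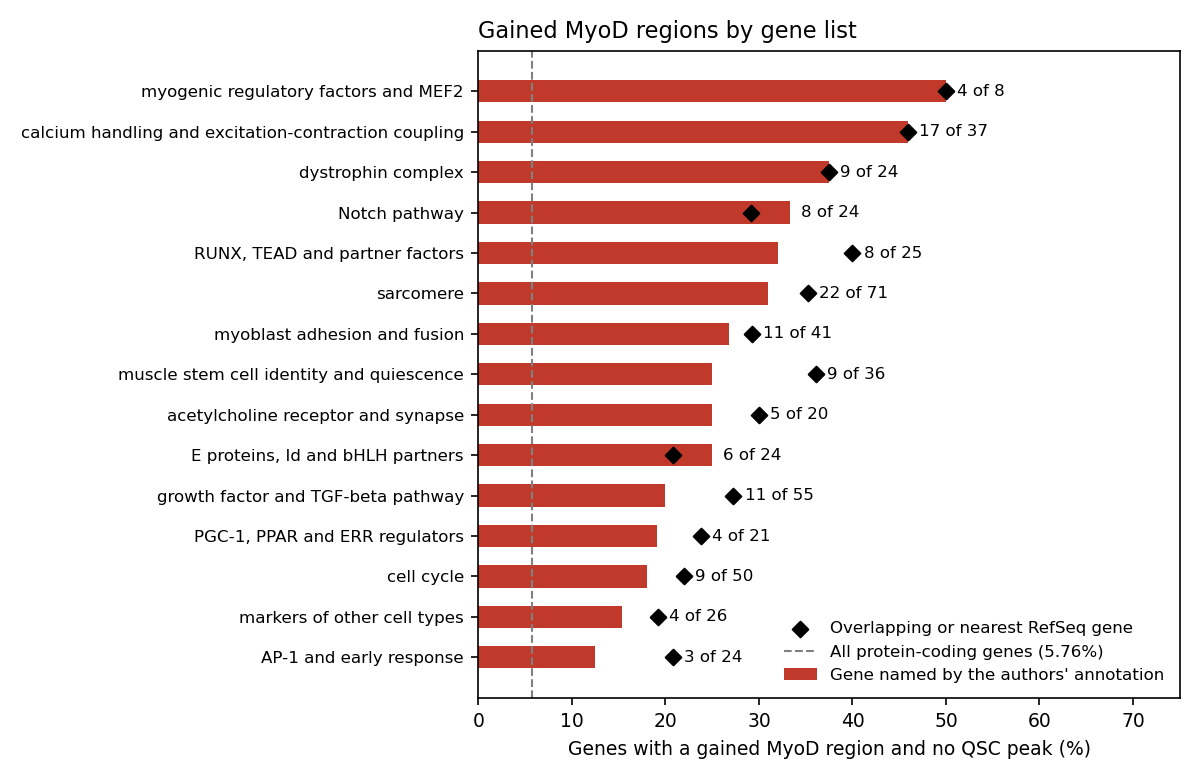
Percent of each gene list with a gained MyoD region and no QSC peak (x axis), by the authors' gene (red bars, with counts) and by the overlapping or nearest RefSeq gene (black diamonds), beside the 5.76% of all protein-coding genes (dashed line). Myogenic factors (4 of 8) and calcium handling (17 of 37) stand highest and AP-1 genes (3 of 24) lowest. The lists were chosen with earlier results of these data known.

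Of the 8 myogenic regulatory factors and MEF2 factors, Myod1, Myog, Mef2a and Mef2c gained regions. By the authors' annotation Myf5, Myf6 and the other MEF2 genes had no MyoD peak in any library. Scores below are given in the order ASC replicate 1, 2 and 3, and no region described as gained had a QSC peak. Myod1 itself had 3 gained regions, all upstream in the direction where its distal enhancers are known to lie. The region 27.0 kb from the gene (chr7:46348425-46349445) scored 239.7, 130.2 and 76.0. The next, 25.6 kb away (chr7:46349729-46350895), scored 109.5, 247 and 129. The nearest of them, 22.5 kb away (chr7:46352821-46353939), scored 154, 73.3 and 98.0, and the order of the libraries differed between the 3 regions. Mef2a, a partner of MyoD on muscle promoters, had its highest scores 8.31 kb outside the gene (chr7:67384763-67386253), at 289, 276 and 209. Its promoter region scored 118, 111 and 90.9 and a further distal region, 38.1 kb away, 101, 87.3 and 86.2. Mef2c had a promoter region with 129.8, 126 and 79.5. Myog, the MRF of terminal differentiation, had a single promoter region that stood just above the lowest score of the lists, with 50.7, no peak and 54.2, and was not called in ASC replicate 2.

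Among 24 E proteins, Id proteins and other bHLH partners, 6 gained a region (25%). Tcf12, an E protein that dimerizes with MyoD, had one of the highest scores of any listed gene, in intron 13 of 20 (chr9:71874392-71875439), with 376, 329 and 489.9. Hes6 scored 166, 131 and 115 over the promoter shown above. Id2, which binds E proteins and keeps them from DNA, scored 95.0, 81.6 and 91.1 at its promoter. All of these were called in every ASC library. Tcf4, a further E protein, had 2 intronic regions called in all ASC libraries (mean scores 96.3 ± 41.3 and 108 ± 5.30, SD, n = 3), but is not counted because QSC replicate 1 held a separate distal peak there with a score of 59.7.

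Of 36 genes of muscle stem cell identity and quiescence, 9 gained a region (25%), 8 of them with a region called in all 3 ASC libraries. Megf10, a receptor of muscle stem cells, had 2 regions over exons, and that over exon 5 of 25 scored 323, 382 and 308. Itga7, the laminin receptor subunit used to isolate these cells, scored 262, 163 and 335 in intron 1. Fgfr4 scored 329, 219 and 261 at 2.36 kb outside the gene and 148, 279 and 144 over its 3′ UTR. Met, the receptor of hepatocyte growth factor, scored 252, 218 and 149 in intron 4 of 21. Each of these scored above 98.5, the median of gained regions called in 3 libraries, in every ASC library. Pax7, the factor that defines the cells, had a peak in ASC replicate 3 only, in intron 7 of 8, with a score of 51.8. By overlapping or nearest RefSeq gene 13 of the 36 qualified, with Cdh15, Cxcr4, Foxo1, Fgfr1 and Ncam1 added and Heyl dropped. None of the 36 genes had a QSC peak by the authors' annotation, which says little, since only 1.02% of all protein-coding genes had one.

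Cdh15 (M-cadherin, an adhesion protein of muscle stem cells) was listed under another gene. The annotation gave Galnt2l 13 gained regions, the most of any gene, but they ran over 3.85 Mb of chromosome 8 and overlapped or lay nearest to 8 protein-coding RefSeq genes. One over Cdh15 (chr8:122850294-122852459) scored 370.0, 354 and 548, and another beside it scored 85.8, 58.2 and 53.0. A region over the start of Acta1 (chr8:123894687-123896700) scored 136, 86.8 and 68.3, and a weaker one lay nearby. The remaining ones overlapped or neighboured Gse1, Cbfa2t3, Crispld2, Slc7a5, Piezo1 and Acsf3, and the highest of these, over Gse1, scored 298, 245 and 189. A comparable case is Fgfr2, whose gained region lay 2089 kb from the RefSeq gene and over Chst15.

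Of 25 RUNX, TEAD and partner factors, 8 gained a region (32.0%). Tead1, a DNA-binding effector of the Hippo pathway, had 5 gained regions, shared with Rreb1 and Cdh5 as the most after Galnt2l. Its strongest, in intron 9 of 11 (chr7:112885251-112886250), scored 284, 257 and 224, and a second in the same intron 146, 169 and 227. Runx2 scored 182, 139.7 and 212 in intron 5. Runx1 had 2 gained regions, and the one outside the gene, called in all 3 libraries, scored 64.5, 78.9 and 77.4. Tead4 was different, since its region in intron 8 of 11 (chr6:128236179-128237980), with ASC scores of 202, 231 and 164, also carried a peak of 53.9 in QSC replicate 3. Vgll3, a TEAD cofactor, had an ASC region in intron 1 with 108, 70.4 and 60.1 and a separate distal QSC replicate 1 peak of 52.0. Of 24 AP-1 and early response genes 3 qualified, namely Fos, Klf10 and Nr4a3. Fos scored 129, 93.9 and 68.1 at 20.2 kb outside the gene.

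In the Notch pathway, which holds muscle stem cells in quiescence, 8 of 24 genes gained a region (33.3%), 7 of them in all 3 ASC libraries. The receptor Notch1 had 2, over exon 3 and intron 2, scoring 142, 66.6 and 66.5 and 96.6, 126 and 53.1. Notch2 scored 145, 73.7 and 93.8 in intron 1, and the ligand Jag2 197, 102 and 142 over exon 6. Receptors, a ligand, the DNA-binding effector Rbpj, the antagonist Numb and the glycosyltransferase Mfng were all among the 8. Rbpj was called in ASC replicates 1 and 3 only.

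Of 50 cell cycle genes 9 gained a region (18%), 4 of them in all 3 ASC libraries. Ccnd3 (cyclin D3) had 3 regions, and the one in intron 1 that was called in all libraries (chr17:47521338-47522505) scored 128, 80.9 and 99.1. Ccnd1 (cyclin D1) scored 181, 104 and 112 at 2 to 3 kb from its start. E2f2 scored 125, 177 and 120.1 near its promoter. The others were Cdk1, Rb1, E2f6, Cdc25b, Btg2 and Gadd45b. Cdkn1a, the inhibitor p21 and a known MyoD target, was the opposite case. Its one MyoD region, 2.08 kb outside the gene (chr17:29102801-29103598), was called in QSC replicates 1 and 2 with scores of 54.7 and 63.9 and in no ASC library. The score in replicate 1 stood near 50.0, the lowest of the lists, and QSC replicate 3 had no peak there.

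Contractile genes gained regions in number, 22 of 71 sarcomere genes (31.0%), 17 with a region in all 3 ASC libraries and 14 at a promoter. Flnc (filamin C) scored 242, 272 and 101 over exon 2 of 48. Cap2, an actin regulator, had 4 intronic regions, the highest with 228, 227 and 117. Klhl40 scored 92.8, 97.1 and 93.9, the most even of these across libraries. Among myosins, the region of Myh3 (embryonic) and the intron 1 region of Myl1 were called in all ASC libraries, with 151, 78.7 and 52.5 and 70.2, 111 and 113. The promoter region of Mylpf, a further myosin light chain gene, was also called in all of them, with 79.4, 74.9 and 91.6. The other gained regions of myosin genes were called in 2 libraries each. A distal one of Myl1 scored no peak, 68.2 and 77.1, that of Myh8 (perinatal) 99.95, no peak and 101 and that of Myh7b no peak, 70.3 and 54.8. Myh1, a fast adult isoform, scored 51.6, 54.9 and no peak, near the lowest score of the lists. Titin (Ttn) scored 104, 52.8 and 56.0 and nebulin (Neb) 90.6, 61.5 and 57.5 at their promoters. The promoter regions over Des and Mybpc1 shown above scored 84.2, no peak and 111 and 84.5, 76.1 and 53.3. Myh2, Acta1 and Tpm1 were added by nearest RefSeq gene (25 of 71).

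**Figure D4:**
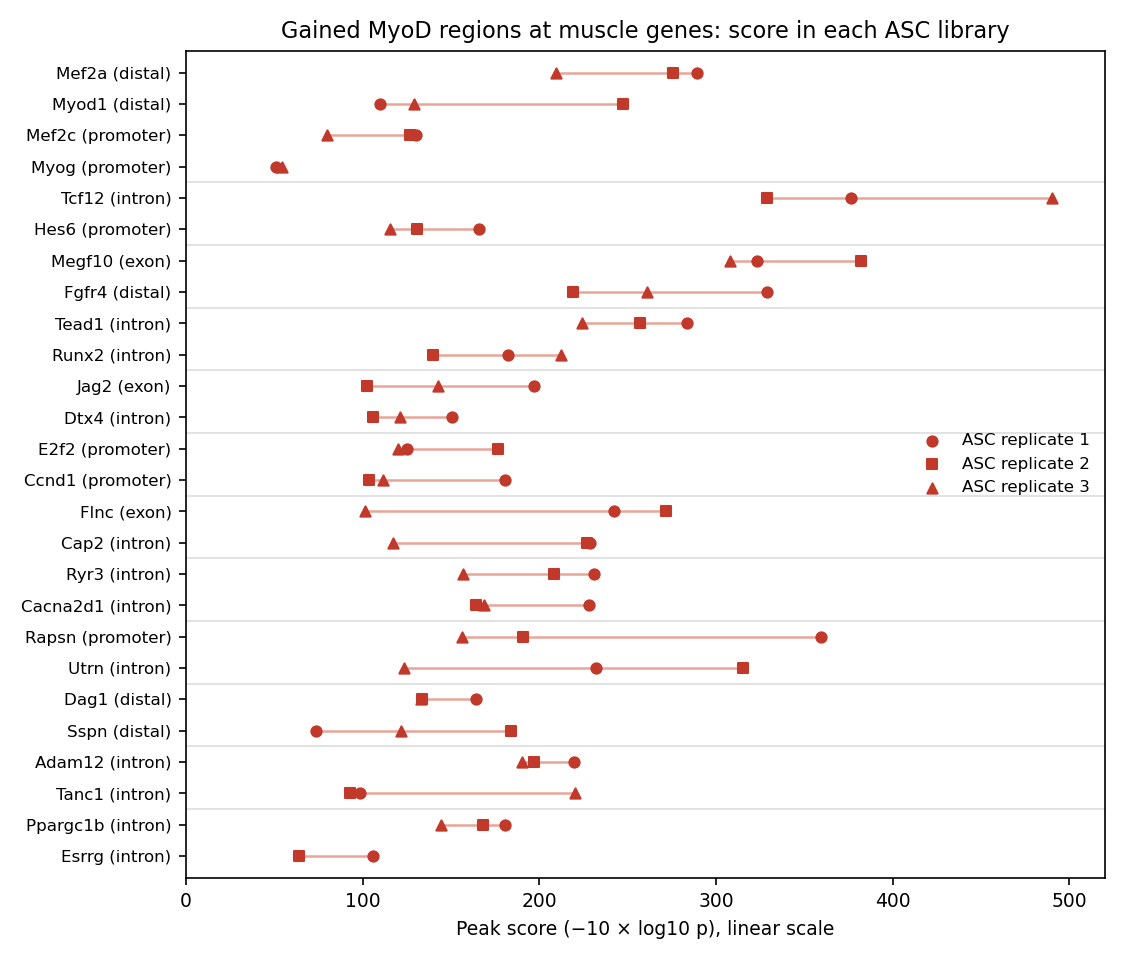
Peak score in each ASC library (x axis, linear; circle, square and triangle for replicates 1, 2 and 3) of the strongest gained region of genes from 12 of the lists, grouped by list between grey lines. Among these regions the libraries lie furthest apart at Rapsn (156 to 359), Tcf12 and Megf10 stand highest, and Myog and Esrrg lack a peak in 1 library.

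The machinery of excitation-contraction coupling had the second highest share, 17 of 37 genes (45.9%), and 14 of these had a region in all 3 ASC libraries. Of the calcium release channels, Ryr3, the isoform of immature muscle, scored 231, 208 and 157 in intron 1 and Ryr1, that of adult skeletal muscle, 81.8, 160.2 and 109.8 at its promoter. Subunits of the voltage sensor were also among them. Cacna1s scored 207, 120.4 and 123 in intron 2 of 43, Cacna2d1 228, 164 and 169 in intron 1 and Cacng1 60.9, 86.1 and 73.1 at its promoter. Stac3, which couples the sensor to the channel, scored 102, 125 and 53.3. The pump Atp2a1 scored 60.5, 92.6 and 91.7 and its inhibitor sarcolipin (Sln) 51.0, 84.5 and 80.8. Triadin (Trdn) scored 131, 58.8 and 106. No member of the list had a QSC peak by the authors' annotation, beside 1.02% of all protein-coding genes. With so low a share, an absence in a list of this size says little about its genes.

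At the neuromuscular junction 5 of 20 genes gained a region (25%). Rapsn (rapsyn, which clusters acetylcholine receptors) scored 359, 191 and 156 at its promoter. Chrna1 scored 201, 212 and 106, and Dok7, an activator of the kinase MuSK, 119.6, 116 and 85.0. Utrn (utrophin) scored 232, 315 and 123 in intron 1 of 73. For each of these 4 genes replicate 3 was the lowest library. Chrnb1 was added by RefSeq gene.

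Of 24 genes of the dystrophin complex 9 qualified (37.5%). Dag1 (dystroglycan, the laminin receptor of the complex) scored 164, 133 and 133 at 10.2 kb outside the gene. The sarcoglycan Sgcb scored 67.0, 75.5 and 64.2 at its promoter, whereas Sgca was called in 2 libraries with no peak, 111 and 51.0. Of 41 adhesion and fusion genes 11 qualified (26.8%), 4 of them in all 3 libraries. Adam12 scored 219.6, 197 and 190.3 and Tanc1 98.3, 92.7 and 220.0, with replicate 3 highest for Tanc1. Mymk (myomaker, the membrane protein needed for myoblast fusion) was called in 2 libraries with 82.0, 108 and no peak.

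Growth factor and TGF-beta genes qualified in 11 of 55 cases (20%), counting Fgfr2, whose region lay over Chst15 as given above. By overlapping or nearest RefSeq gene 15 of 55 qualified (27.3%), with Fgfr2 dropped. Bmpr1a scored 130.1, 64.3 and 69.0, Tgfbr1 84.0, 55.9 and 71.8 and Igfbp5 119, 98.7 and 68.5. Between Igfbp5 and the sperm protein gene Tnp1 lay 3 more gained regions, given to Tnp1 from 45.0 to 62.6 kb away, the highest with 304, 224 and 145. Of 21 PGC-1, PPAR and ERR genes 4 qualified (19.0%), namely Ppargc1b with 4 regions, Esrrg and Rxrg with 2 each and Rxra. The highest Ppargc1b region, in intron 1 of 11, scored 180.2, 168 and 144, and its promoter region was called in replicates 2 and 3 only, with no peak, 70.6 and 70.6. Its paralog Ppargc1a had a peak in 1 ASC library, with a score of 60.7. By the authors' annotation Mfn1, Mfn2 and Hif1a had no MyoD peak in any library.

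Of 26 markers of other cell types, 4 carried gained regions (15.4%), again above 5.76%. These were the endothelial genes Pecam1, Cdh5 and Tek and the pericyte gene Rgs5, each with a region in all 3 ASC libraries. The 5 Cdh5 regions were all distal, from 350.5 to 606 kb from the gene, with no protein-coding RefSeq gene nearer. Tek scored 233, 56.7 and 54.6, so that replicate 1 stood far above the others. A peak does not measure expression, and whether other cells in the sort contributed was not tested.

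Muscle microRNAs were among the gained loci. Mir206 had 3 gained regions, at its promoter (chr1:20677643-20678371) with 132, 109.9 and 65.1 and 8.76 and 10.6 kb away with 175, 159 and 139 and 117, 121 and 229. The nearest RefSeq start to these last 2 regions was that of Lincmd1, 0.005 and 2.055 kb away. Mir133b lies in the same cluster as Mir206. The host transcript of Mir133a-1 scored 198, 238 and 144 at its promoter, and Mir1a-1 was called in 2 libraries with no peak, 55.7 and 62.8. The mature 3p forms made at the Mir206 locus are shown from RefSeq, 5′ to 3′, with the seed (bases 2 to 8) in capitals.
mmu-miR-206-3p: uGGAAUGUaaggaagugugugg
mmu-miR-133b-3p: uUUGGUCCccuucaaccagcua

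The seeds of these molecules differ, being GGAAUGU and UUGGUCC. They lie on the plus strand at chr1:20679055-20679076 and chr1:20682834-20682855, so the promoter-proximal gained region ends before both.

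After Galnt2l, the genes with most gained regions were Tead1 and Cdh5, given above, and Rreb1, which is in no list, with 5 each. The Rreb1 regions were all distal, 85.6 to 158 kb from this zinc finger gene, and the highest of them (chr13:37691620-37692773) scored 269, 220.3 and 271. Zfp568, a KRAB zinc finger gene, had 4 regions, including a neighbouring pair in intron 6 with 424, 265 and 219 and 435, 216 and 411. Pde4b, a cyclic AMP phosphodiesterase, scored up to 168, 221 and 125. By gene part, the highest-ranked gained promoter region lay at Arhgef2 (chr3:88629601-88630883), with 646, 533 and 755. The highest-ranked gained intron region was at Olfml2b with 601, 459 and 564, the highest-ranked gained distal region near Mir5133 with 531, 402 and 384 and that of 5′ UTRs at Aldh3b1 with 402, 219.7 and 253. The highest-ranked gained 3′ UTR region was at Bcar1, an adhesion adaptor, with 231, 209 and 184.

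Few places carried MyoD peaks in both states. Of the 4 kept regions Dpp9, a dipeptidyl peptidase gene, was the only one called in all 6 libraries. Its region in intron 10 of 20 (chr17:56199510-56200593) scored 76.1, 136 and 71.1 in ASCs and 92.2, 86.3 and 79.4 in QSCs, so the states overlapped. The region at Zfp979 scored 97.3, no peak and 93.1 in ASCs against 350.6, 140.6 and 68.1 in QSCs. The kept regions near Gm9075 and Gm371 scored no peak, 87.2 and 91.9 and no peak, 70.2 and 55.9 in ASCs, and 59.7 and 60.0 (replicates 2 and 3) and 126, 85.5 and 72.2 in QSCs. Dpp9, Gm9075 and Gm371 also carried MyoG peaks in at least 2 libraries of each state, and Zfp979 was the only one of the 4 without a MyoG peak. Of the 6 regions with a single QSC peak the strongest lay in intron 4 of Aida (chr1:183309360-183310391), where ASC scores were 537, 564 and 525 and the QSC replicate 3 score was 53.6. At Aida, Tead4, 1110059E24Rik and, by a small margin, Esr1 the QSC score lay below every ASC score, but at Gm11605 and Chl1 it fell within the ASC range.

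**Figure D5:**
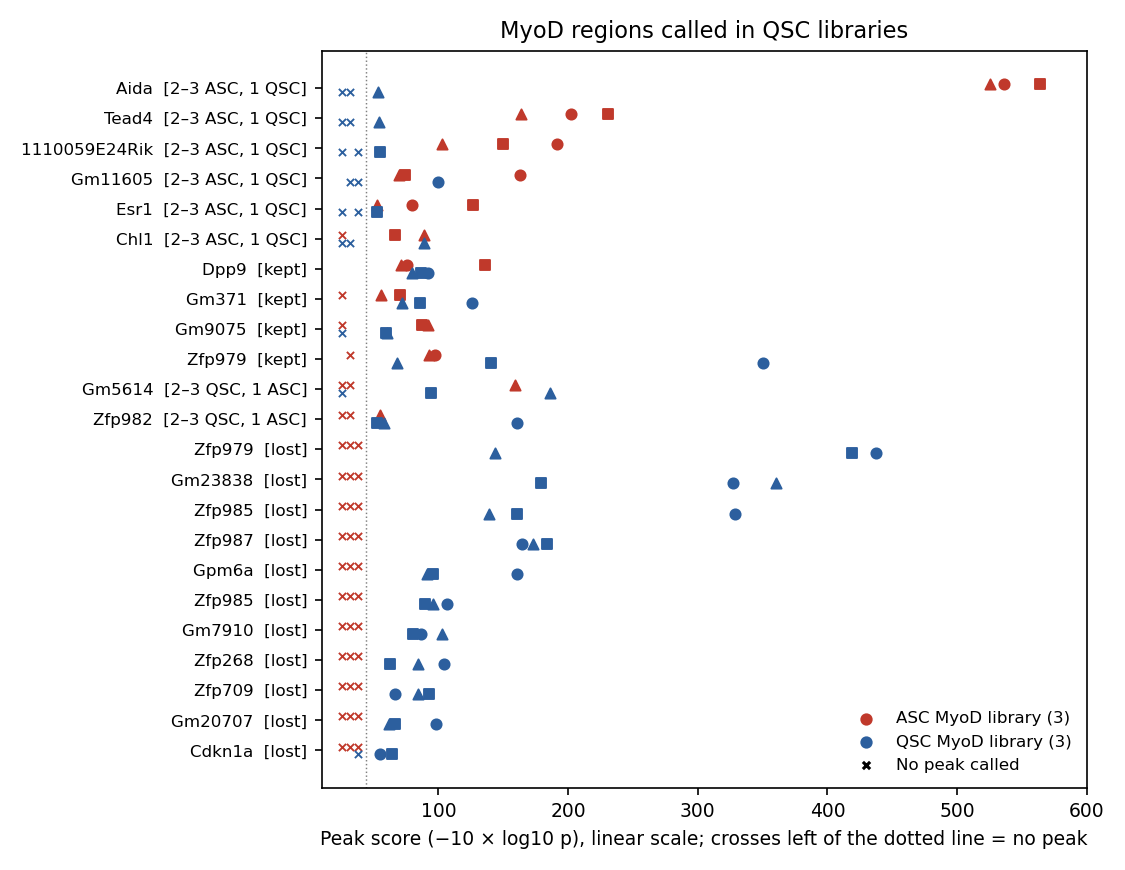
Peak scores (x axis, linear) in ASC (red) and QSC (blue) libraries, with circle, square and triangle for replicates 1, 2 and 3 and a cross where no peak was called, for the kept regions, the regions short of kept by 1 library, the 10 lost regions called in all 3 QSC libraries and the Cdkn1a region. Aida and Tead4 show ASC scores far to the right of a lone QSC point, and Dpp9 shows both states overlapping.

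Lost regions sat largely at zinc finger and other multi-copy gene families, whose near-identical copies can share reads. They were taken by symbol (starting with Zfp, Olfr, Vmn, Igh, Igk, Speer or Mup), together with symbols of Gm and a digit, the name of predicted gene models, which need not be multi-copy. Together they took 30 of 35 lost regions (85.7%), 37.7% of regions of a single QSC library and 12.2% of gained regions. Without the Gm symbols the families took 20 of 35 lost regions (57.1%), 9.92% of regions of a single QSC library and 1.01% of gained regions. Per library the families and Gm symbols took 12.4%, 13.2% and 13.3% of ASC peaks and 49.7%, 56.1% and 46.0% of QSC peaks, and the families alone 1.21%, 1.19% and 1.44% against 18.7%, 28.1% and 20.7%. Among peaks scoring at least 80, the families and Gm symbols together took 84.0% to 92.0% of the 25 or 26 peaks in each QSC library and 11.9% to 12.7% in ASC libraries. The 35 regions fell into 11 loci, and 18 of them lay in clusters of zinc finger genes on chromosome 4. The stretch from 145 to 148 Mb held 15.8%, 19.4% and 19.5% of the peaks of the QSC libraries and at most 0.151% of those of the ASC libraries. The highest lost region, near Zfp979 (chr4:147594236-147607028), scored 437, 419 and 144 in QSC replicates 1, 2 and 3. Next stood a distal region near Gm23838 (chr5:5944434-5945706), with 327, 179 and 361. The 5 lost regions without a family or Gm symbol lay at Cdkn1a, given above, at the noncoding gene Platr16 and, in 3 cases, far from Gpm6a. The Platr16 region lay within the chromosome 4 stretch. Gpm6a, a neuronal membrane protein gene, stood 285 to 309 kb from the 3 regions given to it. Their nearest protein-coding RefSeq genes were Gm51591 and Gm51573. The highest of those 3 (chr8:55345619-55355152) scored 161, 96.0 and 91.2.

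QSC peaks of higher score were also broad. Median width was 865, 809 and 775 bp in ASC replicates 1, 2 and 3 and 679, 731 and 676.5 bp in QSC replicates 1, 2 and 3, but among peaks scoring at least 80 it was 865 to 941 bp in ASCs and 1669 to 2913 bp in QSCs. Lost regions had a median width of 2983 bp, gained regions 982 bp and regions of a single QSC library 646 bp. The 4 kept regions had a median width of 7133 bp, with 17109 bp near Gm371 and 13021 bp at Zfp979 but 1084 bp at Dpp9 and 1245 bp near Gm9075.

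Of the 1976 gained regions, 71 (3.59%) overlapped an ASC MyoG peak in any library, beside 111 of all 4488 regions (2.47%). A QSC MyoG peak overlapped 7 gained regions (0.354%) and 18 of all regions (0.401%). Of the 35 lost regions, 5 (14.3%) overlapped a QSC MyoG peak and 4 (11.4%) an ASC MyoG peak. Those 4 regions, given to Speer4e, Gm17019 and Gm21847, overlapped MyoG peaks in 2 or 3 ASC libraries, so peaks were still called there after injury with the other antibody. Among named genes, Mnat1 (intron 7) overlapped MyoG peaks in all 3 ASC libraries and a Cap2 intron region in 2, while the Myod1 region 25.6 kb away, Tcf12, Notch1, Notch2 and the Rreb1 region at chr13:37666192-37667331 each overlapped 1. MyoG libraries held fewer peaks (2609 over 6 lists), which limits this overlap.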

How the data were processed

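ChIP DNA of MyoD from 3 ASC and 3 QSC libraries had been sequenced by the authors. Per the labels' processing notes, mm10, BWA 0.7.5, MACS and deepTools 3.5.0 were used, with no version of MACS and no role stated. The deposited lists give each peak a start, an end, a gene, a gene part and a score, which the authors wrote as -10 times the log10 of the p-value, from 50.0 upwards. They carry no counts, so depth is unknown and its precision cannot be given. Input libraries were not analysed here.

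Regions were classified as described above with Python 3.11.15 scripts (pandas 2.3.3, numpy 2.4.6, figures with matplotlib 3.10.9), tested on simulated peak lists. Genes were those of the authors' annotation, and RefSeq (GRCm38.p6, the assembly of mm10) supplied gene spans, starts and sequences. The start and promoter tables are not complete and hold no chromosome 18. Group means were compared by exact permutation over libraries. The naming rule took kept regions, up to 10 lost regions in all QSC libraries and the 10 genes with most gained regions. It added up to 4 genes per list, plus members with a QSC peak. The 3 highest-ranked gained regions per gene part and 8 genes of the study completed it. Many further genes were named outside this rule and after their values were seen. They include list members beyond the 4, Platr16 and lost regions in 2 libraries, Cdh15 and Acta1. One gene of the dystrophin list is not reported here. Members and lists were chosen with earlier results of these data known. The alternatives were a score of at least 80, a mutual overlap of 50%, joining peaks at most 500 bp apart, 1 or 3 libraries, a promoter of 1 kb, removal of crowded bins (10 or more gained or lost regions per 1 Mb), pairing by replicate number and leaving out libraries.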

Additional observations from a re-analysis of the deposited data

How the results depend on the processing

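The log2 ratio of peak number and the differences in promoter, intron, distal and multi-copy shares kept their sign under every alternative tried, and no alternative brought a p-value below 0.05. Their sizes moved: with a score of at least 80 the promoter difference fell from 8.53 to 3.34 percentage points (exact permutation p 0.4, libraries overlapping), the intron difference rose from 13.6 to 24.1 and the multi-copy difference went from -37.6 to -75.8. Chosen after seeing the data, leaving Gm symbols out of the multi-copy families gave -21.2. The difference (ASC minus QSC) in exon and UTR share turned from -3.03 to 0.942 percentage points without the crowded bin, and that in median peak width turned from 121 to -1522 bp with a score of at least 80. With that score 851 regions and 762 genes were gained, 0 regions were kept and 15 lost. With a peak in all 3 libraries the counts were 1101, 937, 1 and 10, and with 1 or more libraries 4082, 2878, 18 and 388. Overlap of 50% and a gap of up to 500 bp left all 4 counts within 1.5 times, as did removal of the crowded bin. Leaving out 1 library gave 1282 to 1979 gained regions, lowest without ASC replicate 1, 1081 to 1592 gained genes, 1 to 3 kept regions, lowest without ASC replicate 3, and 19 to 38 lost regions, lowest without QSC replicate 1 (21 without QSC replicate 3). The cause of these changes beyond fewer peaks or libraries was not tested. A set of 162 genes with a gained region, not limited to those of the naming rule, was also followed. It held list members, genes with most gained regions and muscle microRNAs, among others. Of the 162 genes, 108 had one with a score of at least 80, 123 with a peak in all 3 libraries and at least 133 without any 1 library. Chosen after seeing the data, assignment by RefSeq span gave 1536 gained genes, and 1 kept region had no MyoG peaks in both states.

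With the replicate block, which pairs libraries by number, the differences were the same (log2 ratio of peak number 3.90, promoter 8.53, intron 13.6, distal -19.1, exon and UTR -3.03, multi-copy -37.6 percentage points, width 121 bp), and the exact sign-flip p was 0.25 for each, the smallest that 3 pairs allow. The deviations of the 5 shares from the state means correlated at -0.57, 0.79 and -0.78 between libraries of the same number. Between libraries of different numbers the correlations ran from -0.936 to 0.891. With so few shares and libraries these correlations cannot show or exclude pairing. The labels do not say whether libraries of the same number share animals. Depth is unknown, which limits the reading of every count of peaks.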
